A study of Mus musculus with 16 samples.

Results

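The genes analysed here were 10 members of the IL-4 response of B cells: the receptor chains Il4ra and Il2rg, the kinases Jak1 and Jak3, the transcription factor Stat6, the adaptor Irs2, the feedback inhibitors Socs1 and Cish, and the targets Fcer2a and Il4i1. They were taken by symbol from the GENCODE annotation of GRCm38 (mm10), and the peaks used were those between 1000 bp before and 100 bp after one of their transcription start sites (promoter regions) and, apart from these, the peaks in the gene body or within 10 kb of it (nearby regions). This gave 28 of the 16566 regions that the 8 peak lists formed when overlapping or touching peaks were joined, 11 at promoters and 17 nearby. All 10 genes had a promoter region, and Irs2 and Socs1 had no nearby region.

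The libraries came from ATAC-seq, in which the Tn5 transposase cuts open chromatin, on mouse splenic B cells activated in culture with LPS at 10 µg/mL and IL-4 at 20 ng/mL, at 50000 cells a library. All mice were labelled C57BL/6, and both groups carried CD23-Cre on one chromosome only, so that no Cre-free group stands among the ATAC-seq libraries. In the 4 Brg1 flox/plus libraries 1 allele of Smarca4, the gene of the chromatin remodelling ATPase Brg1, was floxed, and in the 4 Brg1 flox/flox libraries both alleles were. The comparison addresses how chromatin accessibility differs when Brg1 is lost from activated B cells. The sample labels give 72 hours of activation and the description of the series 96 hours. Nothing in the labels says that the 4 libraries of a genotype came from separate mice, so the p-values below measure only the spread between libraries. CD23-Cre is a transgene active in mature B cells and named for CD23, the product of Fcer2a. Its construct is not given in the sources used here, and if it carries sequence of Fcer2a, fragments of the transgene and of the endogenous gene cannot be told apart there.

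IL-4 binds IL-4Rα, which pairs with the common γ chain encoded by Il2rg. The kinases Jak1 and Jak3 then phosphorylate the receptor, Stat6 docks, is phosphorylated, dimerises and moves to the nucleus, and Irs2 links the same receptor to PI3 kinase. Socs1 and Cish are induced by cytokine signals and limit them. In B cells this pathway raises CD23 and MHC class II and directs class switching to IgG1 and IgE.

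Where a list holds no peak, none was detected at the depth of that library, which does not show closed chromatin. The number of fragments at each summit was recovered from the deposited values, and summit heights are given relative to the library, where 1 is the median summit of the regions detected in all 8 libraries. That median lay between 22 fragments in Brg1 flox/flox replicate 2 and 78 in Brg1 flox/plus replicate 1, and the lists held 6271 to 14614 peaks. The lowest summit in a list was 5 to 8 fragments, at a relative height of 0.0897 in Brg1 flox/plus replicate 1 and 0.12 to 0.273 in the other 7. The genome background was 1.61% to 2.35% of the median summit in Brg1 flox/plus and 3.29% to 3.56% in Brg1 flox/flox libraries, with no overlap, and its part in the differences below was not tested. Among B cell genes, Pax5 and Ms4a1 had a promoter peak in all 8 libraries, Ebf1 in 6 and Cd79a in 1, while Cd79b, Cd22 and Blk had none. None of 12 genes of T, myeloid and NK cells had a promoter peak in any library. Of the plasma cell genes, Sdc1 had one in 3 Brg1 flox/plus and 4 Brg1 flox/flox libraries, and the 2 promoter regions of Prdm1 were listed in 3 against 2 and in 2 against 0.

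Across the members, 4 of the 11 promoter regions (36.4%) were detected in fewer Brg1 flox/flox than Brg1 flox/plus libraries, near the 37.4% of all promoter regions. Of the 17 nearby regions, 11 were (64.7%). The nearby regions are a mixed class, in which 9 cover the promoter of a neighbouring gene and 8 cover none, a split made after their values were seen. Those in fewer were 3 of the 9, beside 37.4% of all promoter regions, and 8 of the 8, beside 63.3% of all regions that cover no promoter. Of the 28 regions, 15 were detected in fewer Brg1 flox/flox than Brg1 flox/plus libraries (53.6%, against 47.2% of all regions), 3 in more (10.7%, against 16.7%) and 10 in equal numbers. By class, those in more were 3 of the 11 promoter regions (27.3%, against 11.3% of all promoter regions). They were 0 of the 17 nearby regions. For the 9 at a neighbour's promoter this stands against 11.3% of all promoter regions. For the 8 at none it stands against 25.5% of all regions that cover no promoter. Among the 11 promoter regions, those of Il2rg, Stat6 and Fcer2a and the second promoter of Il4i1 were detected in fewer, those of Il4ra, Jak1 and Cish in more, and those of Jak3, Irs2 and Socs1 and the first of Il4i1 in all 8. A library detected 77.3% ± 18.9 (SD, n = 4) of the member promoters in Brg1 flox/plus and 72.7% ± 7.42 in Brg1 flox/flox. The difference was -4.55 points, beside -9.67 points over all 10326 promoter regions. The member difference turned to 2.78 points without Brg1 flox/plus replicate 1 and to 4.55 points where peaks had to cover 50% of a region. The difference over all promoter regions under these settings is not given here. For nearby regions the shares were 70.6% ± 21.5 and 41.2% ± 10.7, a difference of -29.4 points, or -13.9 points in lists of the same length. By class the difference was -13.9 points for the 9 at a neighbour's promoter, beside the -9.67 points above. It was -46.9 points for the 8 at none (50.0% ± 36.8 against 3.13% ± 6.25). Over all 6240 such regions it was -12.6 points (35.4% ± 27.0 against 22.8% ± 6.20). Brg1 flox/plus replicate 1 listed 72.1% of all such regions, against 13.1% to 39.4% in replicates 2 to 4. These values describe chosen genes and were not tested.

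**Figure D1:**
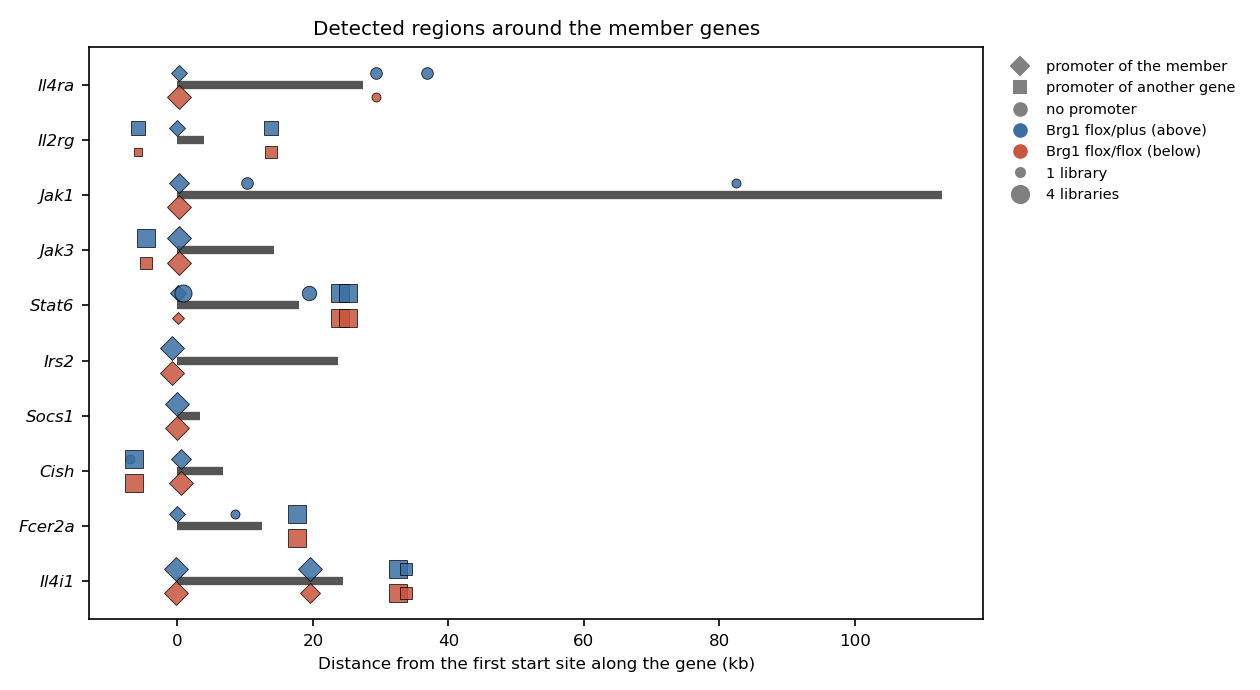
Position of the 28 member regions along each gene, as the distance in kb of the region's centre from the first annotated start site, with the gene body as a grey bar. Marker size gives the number of libraries that detected the region (blue, Brg1 flox/plus, above the bar; red, Brg1 flox/flox, below), and the round markers, which cover no promoter, add up to 16 detections in Brg1 flox/plus and 1 in Brg1 flox/flox libraries.

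**Figure D2:**
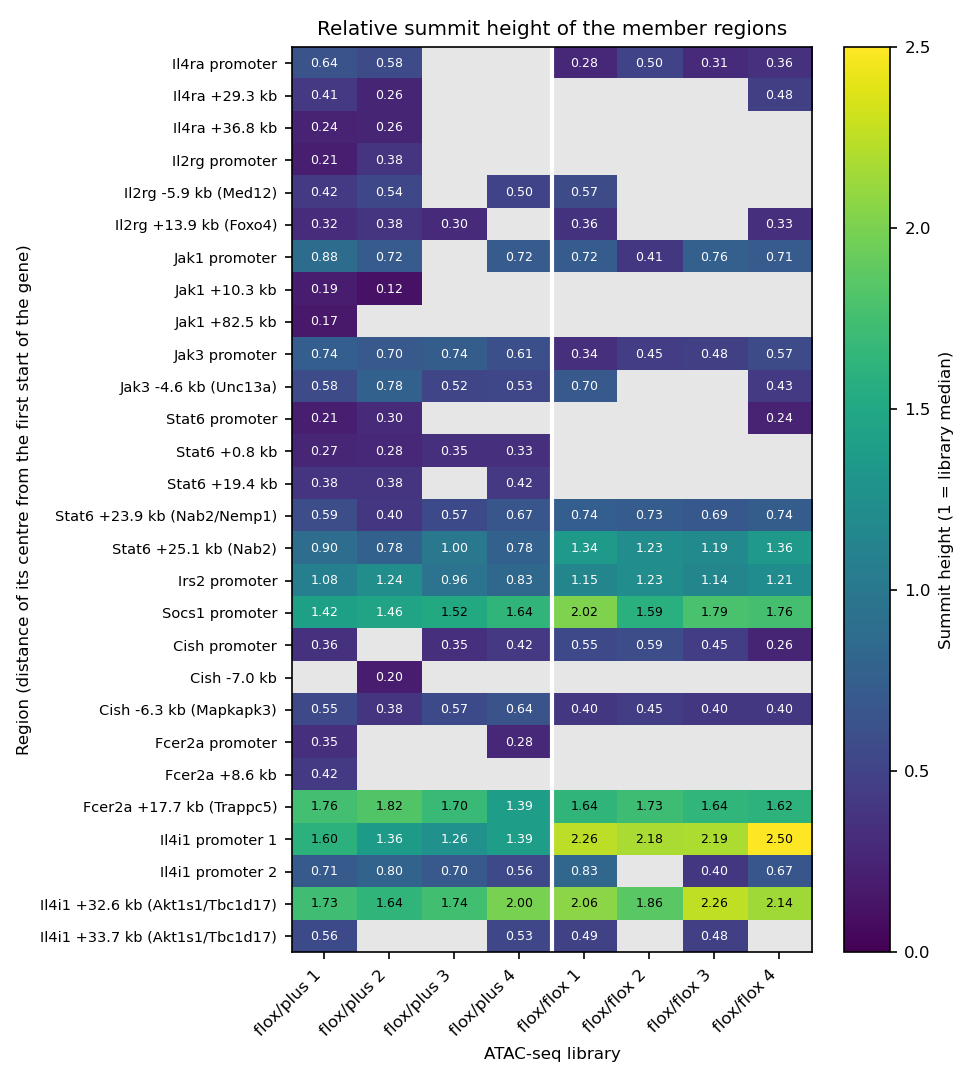
Relative summit height (1 = median summit of the library) of the 28 member regions in the 4 Brg1 flox/plus and 4 Brg1 flox/flox libraries, with grey where no peak was listed. The tall regions at Socs1, Il4i1 and Trappc5 were listed in all 8 libraries, and 76 of the 82 fields without a peak belong to regions that reached a height of 0.6 in no library.

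Il4ra encodes the IL-4Rα chain that binds the cytokine, and its gene lies on the plus strand at chr7:125552120-125579474. Its promoter region (chr7:125551991-125552588) was detected in Brg1 flox/plus replicates 1 and 2, with 50 and 29 fragments and relative heights of 0.641 and 0.58, and in neither replicate 3 nor 4. All 4 Brg1 flox/flox libraries detected it, with 13, 11, 13 and 15 fragments and heights of 0.277, 0.5, 0.31 and 0.357. Where a peak was listed, the Brg1 flox/plus summits were therefore the taller ones, while more Brg1 flox/flox libraries listed a peak (Fisher's exact test over libraries, two-sided, p = 0.429). In lists cut to the same 6271 best peaks it was detected in 2 Brg1 flox/plus and 1 Brg1 flox/flox libraries, so the direction of the detection difference turned. The 120 bases before the first start site are shown because they lie under this peak, with CG dinucleotides in capitals (plus strand, GRCm38 sequence from RefSeq, chr7:125552000-125552119).
Il4ra promoter: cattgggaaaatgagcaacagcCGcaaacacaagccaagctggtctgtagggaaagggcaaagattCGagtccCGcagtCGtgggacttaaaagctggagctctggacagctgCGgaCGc

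Beyond the 3' end of Il4ra were 2 regions that cover no promoter. The nearer (chr7:125581153-125581621), 29267 bp from the first start site, was listed in Brg1 flox/plus replicates 1 and 2 at heights of 0.41 and 0.26 and in Brg1 flox/flox replicate 4 at 0.476. The farther (chr7:125588827-125589076) was listed in the same Brg1 flox/plus libraries, at 0.244 and 0.26, and in no Brg1 flox/flox library. Both were thus absent from Brg1 flox/plus replicates 3 and 4 as well.

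Il2rg, on the minus strand at chrX:101264378-101268255, encodes the common γ chain shared by several cytokine receptors. Its promoter region (chrX:101268192-101268560) was listed in Brg1 flox/plus replicates 1 and 2, with 16 and 19 fragments and heights of 0.205 and 0.38, and in no other library. With 2 of 4 against 0 of 4 libraries the difference in detection did not pass the test (Fisher's exact test over libraries, two-sided, p = 0.429). Its 120 bases before the start site hold few CG dinucleotides (minus strand, chrX:101268256-101268375), and within 150 bp of the summit the ratio of observed to expected CG was 0.182, against a median of 0.846 over all promoter regions.
Il2rg promoter: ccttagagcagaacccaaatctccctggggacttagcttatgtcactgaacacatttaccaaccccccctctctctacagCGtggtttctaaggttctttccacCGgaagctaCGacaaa
The other regions within 10 kb of Il2rg lie at promoters of neighbouring genes. That of Foxo4, a forkhead transcription factor, was detected in 3 Brg1 flox/plus and 2 Brg1 flox/flox libraries at heights of 0.304 to 0.38, and that of Med12, a Mediator subunit, in 3 and 1 at 0.423 to 0.574.

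Jak1 and Jak3 encode the kinases bound to IL-4Rα and the γ chain. Jak3 gave the one lower summit among the members that passed the test: relative to the library median it was 1.54-fold lower in Brg1 flox/flox. Its promoter region (chr8:71676255-71676730, gene on the plus strand at chr8:71676296-71690575) was listed in all 8 libraries. The Brg1 flox/plus libraries had 58, 35, 17 and 22 fragments and heights of 0.744, 0.7, 0.739 and 0.611. The Brg1 flox/flox libraries had 16, 10, 20 and 24 fragments and heights of 0.34, 0.455, 0.476 and 0.571. Every Brg1 flox/flox value lay below every Brg1 flox/plus value, which held for 4.71% of all regions tested. The log2 difference was -0.62 (SE 0.16, limma, adjusted p = 0.0257 over 4582 regions, of which 2.73% were called lower; exact permutation test of this region alone, two-sided, n = 4 and 4, p = 0.0286, the smallest that 70 assignments allow). With replicates 1 and 2 and replicates 3 and 4 averaged, adjusted p was 0.0699 (limma), and it was 0.0656, 0.0641, 0.0835 and 0.0506 without Brg1 flox/plus replicate 1 or 2 or Brg1 flox/flox replicate 1 or 3, so the call is lost without any one of these 4 libraries. It is also lost with the deposited fold in place of fragments (-0.41, limma, adjusted p = 0.0897). The peak reached into the first intron, whose start is shown because it holds a stretch rich in CG (plus strand, chr8:71676584-71676703, CG in capitals).
Jak3 promoter region, intron side: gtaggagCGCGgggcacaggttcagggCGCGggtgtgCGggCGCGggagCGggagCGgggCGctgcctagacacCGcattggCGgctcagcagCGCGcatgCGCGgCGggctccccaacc
Upstream of Jak3, the promoter of Unc13a, a gene of synaptic vesicle priming, was detected in 4 Brg1 flox/plus libraries at 0.522 to 0.78 and in 2 Brg1 flox/flox libraries at 0.429 and 0.702.

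Jak1 (minus strand, chr4:101152367-101265282) had a promoter region (chr4:101264765-101265412) in 3 Brg1 flox/plus libraries, at heights of 0.885, 0.72 and 0.722, and in all 4 Brg1 flox/flox libraries, at 0.723, 0.409, 0.762 and 0.714. Values of the groups overlapped, and in a fit over the regions listed in at least 3 libraries of each genotype the log2 difference was -0.29 (SE 0.21, limma, adjusted p = 0.432; without Brg1 flox/plus replicate 3, where no peak was listed). Inside the gene, 2 intronic regions were found in Brg1 flox/plus alone. One (chr4:101254765-101255168) had heights of 0.192 and 0.12 in replicates 1 and 2, from 15 and 6 fragments, and the other (chr4:101182666-101182931) had 0.167 in replicate 1, from 13. The lowest summit in the Brg1 flox/flox lists was at 0.17, 0.273, 0.19 and 0.19, above the heights of 0.12 and 0.167 and, in 3 of the 4 lists, below that of 0.192. These are the lowest summits anywhere in a list, so a summit above them need not have been listed here.

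Stat6 encodes the transcription factor of the pathway (plus strand, chr10:127642986-127660957). The intronic region just behind its promoter was the only one of the 28 listed in all 4 libraries of one genotype and in none of the other, and it was a low one. This region (chr10:127643595-127644076, centred 834 bp past the nearest start site) had 21, 14, 8 and 12 fragments and heights of 0.269, 0.28, 0.348 and 0.333 in Brg1 flox/plus. No Brg1 flox/flox list held a peak there (Fisher's exact test over libraries, two-sided, p = 0.0286, unadjusted and the smallest that 4 against 4 allow). The lowest summits anywhere in those lists were at heights of 0.17, 0.273, 0.19 and 0.19. Peaks were scored over local background, so these heights do not show that a peak as tall as in Brg1 flox/plus would have been listed here. Over all 16566 regions 0.404% were listed in 4 Brg1 flox/plus and no Brg1 flox/flox library, and 0.169% the other way round. Among the 6240 regions that cover no promoter, the class of this one, the shares were 0.801% and 0.433%. With a −log10 q of at least 5 the count was 3 against 0, and in lists of the same length 1 against 0. When peaks within 500 bp were joined, no member region had 4 against 0. The middle of the region is shown with CG in capitals (plus strand, chr10:127643725-127643844).
Stat6 intron: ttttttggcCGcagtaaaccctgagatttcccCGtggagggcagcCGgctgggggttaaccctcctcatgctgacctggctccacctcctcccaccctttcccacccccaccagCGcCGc

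The Stat6 promoter itself (chr10:127642758-127643345) was listed in Brg1 flox/plus replicates 1 and 2 at 0.205 and 0.3 and in Brg1 flox/flox replicate 4 at 0.238, from 16, 15 and 10 fragments. Downstream of the gene, a region that covers no promoter (chr10:127662135-127662597) had heights of 0.385, 0.38 and 0.417 in Brg1 flox/plus replicates 1, 2 and 4, and no Brg1 flox/flox list held it (Fisher's exact test, two-sided, p = 0.143). Farther downstream stood the promoter of Nab2, a corepressor of EGR factors. Relative to the library median, its taller region (chr10:127667699-127668556) rose in Brg1 flox/flox, with the sign turned when libraries were scaled by their genome background. Heights were 0.897, 0.78, 1 and 0.778 in Brg1 flox/plus and 1.34, 1.23, 1.19 and 1.36 in Brg1 flox/flox libraries, with no overlap, which in this direction held for 11.2% of all regions tested. The log2 difference was 0.57 (SE 0.13, limma, adjusted p = 0.0189; 6.92% of regions were called higher), or -0.30 scaled by the background (adjusted p = 0.112). With replicates averaged in pairs adjusted p was 0.0643, with the deposited fold 0.0797, and it was 0.0598, 0.0537, 0.0558 and 0.0504 (limma) without Brg1 flox/plus replicate 2 or 4 or Brg1 flox/flox replicate 1 or 4. The adjoining region (chr10:127666602-127667235), shared by Nab2 and Nemp1, had 0.4 to 0.667 against 0.69 to 0.745, without overlap, and did not pass the test (log2 difference 0.41, SE 0.16, limma, adjusted p = 0.114).

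Irs2, the adaptor that couples the receptor to PI3 kinase (minus strand, chr8:10984681-11008458), had a promoter region (chr8:11008621-11009750) of about median height in every library. Heights were 1.08, 1.24, 0.957 and 0.833 in Brg1 flox/plus and 1.15, 1.23, 1.14 and 1.21 in Brg1 flox/flox libraries. The groups overlapped, and the log2 difference of 0.22 (95% interval -0.08 to 0.52, limma, adjusted p = 0.357) did not pass the test.

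Socs1 encodes the inhibitor that blocks JAK kinases (minus strand, chr16:10782240-10785536). Its promoter region (chr16:10784802-10786235) was the widest of the 28, at 1434 bp, and was in the upper part of the height range of all regions tested, at the percentile 84.4. Heights were 1.42, 1.46, 1.52 and 1.64 in Brg1 flox/plus and 2.02, 1.59, 1.79 and 1.76 in Brg1 flox/flox libraries. The ranges overlapped through Brg1 flox/flox replicate 2, and the log2 difference was 0.24 (95% interval -0.04 to 0.52, limma, adjusted p = 0.261). Computed from the deposited fold over local background the difference was -0.018 (limma, adjusted p = 0.941), so no direction can be given.

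Cish encodes a SOCS family inhibitor known as a STAT5 target (plus strand, chr9:107296026-107302784). Its promoter region (chr9:107296383-107296856) had heights of 0.359, 0.348 and 0.417 in Brg1 flox/plus replicates 1, 3 and 4 and of 0.553, 0.591, 0.452 and 0.262 in the Brg1 flox/flox libraries. The lowest Brg1 flox/flox value lay below all Brg1 flox/plus values and the other 3 above them, and the log2 difference of 0.25 (SE 0.24, limma over regions in at least 3 libraries of each genotype, adjusted p = 0.552; without Brg1 flox/plus replicate 2, where no peak was listed) did not pass the test. Within 150 bp of the summit it held 4 copies of the STAT5 letters TTCNNNGAA, which read the same on both strands, and 5.34% of all promoter regions hold at least 1 copy in a window of that size. The pairs are shown with the matching letters in capitals (plus strand, chr9:107296658-107296679 and chr9:107296763-107296790).
Cish first pair: tTTCCTGGAAagTTCTTGGAAa
Cish second pair: gTTCTAGGAAgatgaggcTTCCGGGAAg
Upstream, a region that covers no promoter (chr9:107288924-107289154) was listed only in Brg1 flox/plus replicate 2, at 0.2 from 10 fragments. The adjoining promoter of Mapkapk3, a stress-activated kinase (chr9:107289445-107289953), had 0.551, 0.38, 0.565 and 0.639 against 0.404, 0.455, 0.405 and 0.405, with overlap (log2 difference -0.33, SE 0.16, limma, adjusted p = 0.202).

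Fcer2a encodes CD23, the low-affinity IgE receptor of mature B cells (minus strand, chr8:3681737-3694175). Its promoter was weak in these lists. The region at the first start site (chr8:3693981-3694596) was listed in Brg1 flox/plus replicate 1, with 27 fragments and a height of 0.346, and in replicate 4, with 10 and 0.278, and in no Brg1 flox/flox library (Fisher's exact test, two-sided, p = 0.429). An intronic region (chr8:3685378-3685847) was listed only in Brg1 flox/plus replicate 1, at 0.423 from 33 fragments. In lists of the same length neither was detected in any library. The only tall region within 10 kb was the promoter of Trappc5, a subunit of the TRAPP trafficking complex (chr8:3676106-3676827), at 1.76, 1.82, 1.7 and 1.39 against 1.64, 1.73, 1.64 and 1.62, with a log2 difference of -7.34e-05 (95% interval -0.28 to 0.28, limma, adjusted p = 1).

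Around its first start site Fcer2a has a CG-poor sequence, with an observed to expected CG ratio of 0.194 (minus strand, chr8:3694264-3694383, CG in capitals). A start site further downstream, for which RefSeq gives a promoter window (chr8:3690812-3691111), had no peak in any list. That window holds the STAT6 letters once (TTC and GAA with any 4 bases between), 168 bases before the start site, as do 6.95% of 32851 RefSeq promoter windows of 300 bp, and it is shown with the matching letters in capitals because STAT6 is the factor that IL-4 activates (minus strand, chr8:3690980-3691069).
Fcer2a first promoter: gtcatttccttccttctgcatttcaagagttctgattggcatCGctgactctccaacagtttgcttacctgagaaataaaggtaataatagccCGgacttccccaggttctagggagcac
Fcer2a downstream start: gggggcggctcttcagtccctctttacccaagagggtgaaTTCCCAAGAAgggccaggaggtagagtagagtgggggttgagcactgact

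Il4i1 encodes an L-amino acid oxidase induced by IL-4 (plus strand, chr7:44816387-44840809), and its upstream promoter had the largest difference in height among the 9 member regions listed in all 8 libraries when these were centred on the library median (with cyclic loess or background scaling that of Jak3 was larger, at -0.68 and -1.49). Relative to the library median it rose 1.63-fold in Brg1 flox/flox, while scaled by the genome background it did not (log2 difference -0.17, limma, adjusted p = 0.413). This region (chr7:44815714-44816578) also overlaps the promoter windows, as defined above for the members, of Atf5, a stress-response transcription factor, and Nup62, a nuclear pore protein. The peak height cannot be assigned to one of the 3 genes. Brg1 flox/plus libraries had 125, 68, 29 and 50 fragments and heights of 1.6, 1.36, 1.26 and 1.39. Brg1 flox/flox libraries had 106, 48, 92 and 105 fragments and heights of 2.26, 2.18, 2.19 and 2.5, all above every Brg1 flox/plus library. The log2 difference was 0.70 (SE 0.13, limma, adjusted p = 0.00412; exact permutation test of this region alone, two-sided, n = 4 and 4, p = 0.0286). The call held with replicates averaged in pairs (adjusted p = 0.0259), from the deposited fold (0.45, adjusted p = 0.0261) and without each library in turn (0.64 to 0.77, adjusted p = 0.00604 to 0.0189, limma). The sequence at the summit is shown with CG in capitals (plus strand, chr7:44815874-44815993).
Il4i1 first promoter: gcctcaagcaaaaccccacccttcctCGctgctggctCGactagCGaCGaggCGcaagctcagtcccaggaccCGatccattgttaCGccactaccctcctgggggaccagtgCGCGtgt

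The second promoter of Il4i1 (chr7:44835476-44836505), 19604 bp past the first start site and not shared with a neighbour, did not pass the test. Its heights were 0.705, 0.8, 0.696 and 0.556 in Brg1 flox/plus and 0.83, 0.405 and 0.667 in Brg1 flox/flox replicates 1, 3 and 4, with overlap (log2 difference -0.17, SE 0.22, limma over regions in at least 3 libraries of each genotype, adjusted p = 0.674; without Brg1 flox/flox replicate 2, where no peak was listed). The difference between the promoters was not tested. Past the 3' end, the promoter shared by Akt1s1 and Tbc1d17 was the tallest member region on average over the 8 libraries, with 1.64 to 2 in Brg1 flox/plus and 1.86 to 2.26 in Brg1 flox/flox libraries (log2 difference 0.23, SE 0.13, limma, adjusted p = 0.292), and a smaller region beside it was listed in 2 libraries of each genotype.

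**Figure D3:**
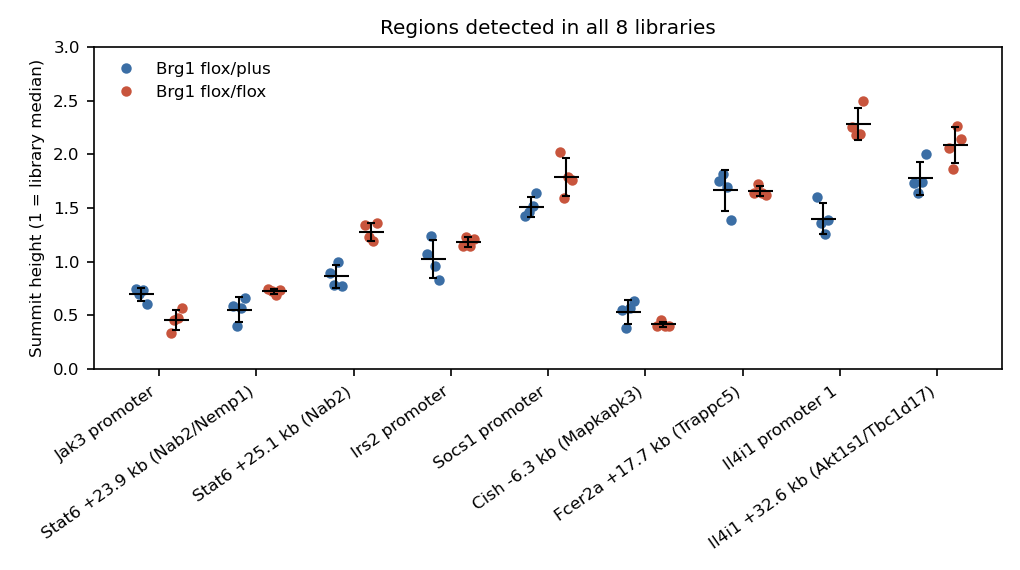
Relative summit height (1 = library median) of the 9 member regions listed in all 8 libraries; each point is a library, the horizontal mark is the mean of 4 libraries and the bar the SD. The groups do not overlap at the Jak3 promoter (lower in Brg1 flox/flox) and at Il4i1 promoter 1 and both Nab2 regions near Stat6 (higher relative to the library median, with the sign turned when scaled by the genome background).

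Of the 9 member regions tested for height, 1 was called lower and 2 higher in Brg1 flox/flox, beside 2.73% and 6.92% of all regions tested, and the median log2 difference was 0.23, beside 0.06 over all 4582 regions tested. Only 4 of the 10 genes (Jak3, Irs2, Socs1 and Il4i1) had a promoter among these regions, since a region had to be listed in all 8 libraries, and the other 5 are promoters of neighbours. The share of lower calls among all calls was 28.3%, but 44.9% with the deposited fold, 42.6% with cyclic loess normalization and 99.5% when libraries were scaled by their background, which moved the median of all regions to -0.81. Under that scaling 7 of the 9 member regions were called lower and none higher, beside 90.9% and 0.436% of all regions tested. Relative to that shift the order of the 9 regions was as before, since it adds the same value to every region.

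**Figure D4:**
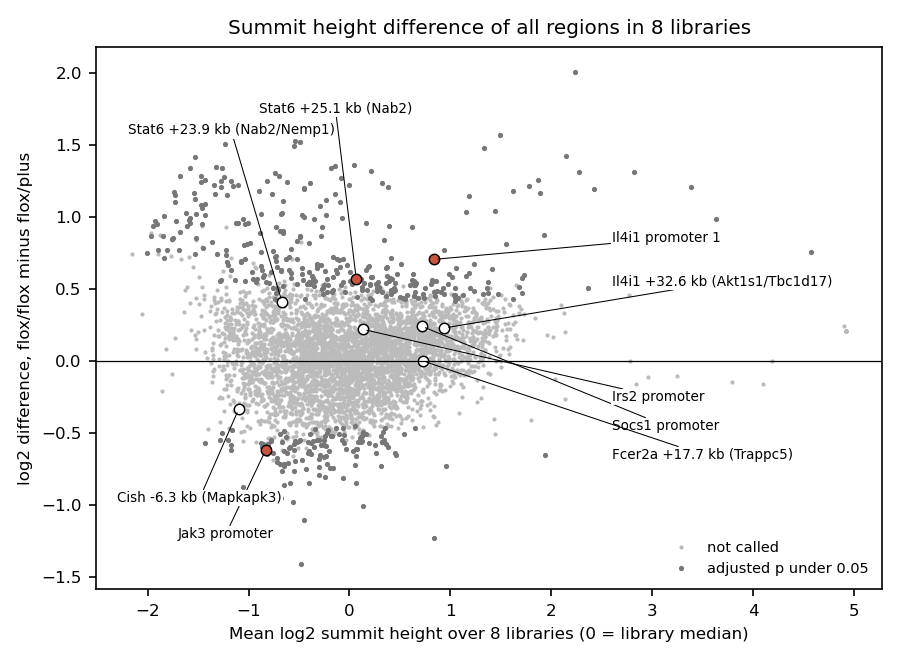
Log2 difference in summit height (Brg1 flox/flox minus Brg1 flox/plus) against mean log2 summit height over 8 libraries (0 = library median) for all 4582 regions listed in all 8 libraries, with the 9 member regions outlined and filled red where adjusted p was under 0.05 (limma). Jak3 lies at -0.62, the taller Nab2 region at 0.57 and Il4i1 promoter 1 at 0.70; scaling by the genome background turns the latter 2 to -0.30 and -0.17.

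The nearby regions fell into 9 at the promoter of a neighbouring gene and 8 at no promoter. The 9 were detected in 88.9% of library and region pairs in Brg1 flox/plus and 75.0% in Brg1 flox/flox. The 8 were detected in 50.0% (16 of 32) and 3.13% (1 of 32), and each of them was detected in fewer Brg1 flox/flox libraries, as were 63.3% of all 6240 regions that cover no promoter. All but the nearer region past the 3' end of Il4ra were listed in Brg1 flox/plus libraries alone. Such a region enters the set only through that genotype, so its direction was fixed in advance and carries no further weight. Of the 16 detections, 7 came from Brg1 flox/plus replicate 1 and 6 from replicate 2, the deepest lists of that genotype, with 1 from replicate 3 and 2 from replicate 4. Without replicate 1, 6 of the regions remained, all with fewer Brg1 flox/flox detections (9 against 1). In lists of the same length 1 of the 8 was detected at all, once, in Brg1 flox/plus.

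Within 150 bp of the median summit, no member region held the STAT6 letters (TTC, any 4 bases, GAA, which read the same on both strands), which 4.85% of all regions hold. The AP-1 letters TGANTCA were in 1 of the 11 member promoters and none of the 9 neighbours' promoters (3.41% of all promoter regions) and in 1 of the 8 nearby regions that cover none (11.4% of all such regions). The RUNX letters TGTGGT were in 1, none and 3 of these (11.1% and 23.8%). The promoters of Il2rg and Fcer2a and the second promoter of Il4i1 had observed to expected CG ratios of 0.138 to 0.194, and the other 8 member promoters of 0.627 to 1.02, beside the median of 0.846 over all promoter regions.

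Of 37 further genes of the IL-4 pathway, chosen as receptors, adaptors, phosphatases, STAT partners and targets, 31 had a promoter peak in some library and 15 in all 8. There were 19 to 29 per Brg1 flox/plus and 16 to 25 per Brg1 flox/flox library. Of all promoter regions, 41.1% were listed in all 8, and a library detected 73.9% ± 20.2 in Brg1 flox/plus and 64.2% ± 9.21 in Brg1 flox/flox. These shares count regions with a peak in some library, while the gene counts include genes with none. Il13ra1, Inpp5d, Parp14, Gfi1, Ccl22 and Il4 had none. Among the 15 tested for height, 1 was called higher relative to the library median and none lower, beside 6.92% and 2.73% of all regions tested. The 1 called was Bcl6, the repressor that drives germinal centre B cells, with heights of 0.885, 0.92, 0.696 and 0.833 against 1.28, 1.14, 1.21 and 1.24 (log2 difference 0.55, SE 0.13, limma, adjusted p = 0.0216). The background scaling turned its log2 difference to -0.32. The promoter of Batf, an AP-1 factor needed for class switching, was listed in all 4 Brg1 flox/plus libraries, at 0.205, 0.42, 0.652 and 0.306, and in no Brg1 flox/flox library. Over all promoter regions 0.165% had 4 against 0.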

How the data were processed

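The 8 ATAC-seq libraries were grouped by the genotype and number in their labels. Per the paper and the labels, the authors used Bowtie2 (mm10) for alignment and MACS2 for 1 peak list per library. Versions, options and the handling of duplicates and of the transposase offset are not given in the sources used here. Each deposited list gives a peak's fold over local background (a ratio), −log10 p and −log10 q, all made by the authors with MACS2. The authors' read coverage and 8 RNA-seq libraries were not analysed here.

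The number of fragments at each summit was solved from fold and −log10 p (within 0.002 of the deposited −log10 p) and came out whole for 99.8% to 99.9% of peaks in each list. Log2 fragments of the tallest peak per region, centred on the library median, were compared with limma (Benjamini-Hochberg, threshold 0.05) over the 4582 regions of chromosomes 1 to 19, X and Y listed in all 8 libraries. A region counted as detected when a peak covered at least 1 bp of it. Single regions were also compared with Fisher's exact test or an exact permutation test over 70 assignments. Depth limits detection: the shallowest list held 6271 peaks.

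Dispersion between Brg1 flox/plus replicates 1 and 2 was 1.04 and between 3 and 4 was 0.9, where 1 is sampling noise, against 1.08 to 2.26 for its other pairs. Their ratios of mitochondrial summit to background differed (16032 and 20098, 22730 and 21451), so they were kept as separate libraries. A fit on averages of these pairs stands beside each member call. In Brg1 flox/flox, dispersion was 0.844 to 0.876 among replicates 1, 3 and 4 and 1.18 to 1.29 between these and replicate 2. The averaged fit joined replicates 1 and 2 and replicates 3 and 4 there too. It therefore cannot show whether Brg1 flox/flox replicates 1, 3 and 4 are separate samples.

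The members and lists were chosen with earlier results of these data known. A gene of the B cell marker list is not reported here. The named genes were all members and neighbours whose promoter window overlaps a member region. Pathway genes were named if called, if listed in 4 libraries of one genotype and at most 1 of the other, or if without a promoter peak. Genes most like the Fcer2a promoter were not named, since neither it nor that of Il4ra was listed in all libraries. Alternatives were stricter peaks, lists of the same length, other overlap, joining, start site and distance rules, other scalings, a replicate block, averaged pairs and each library left out. Exact permutation tests of single regions as a count were added after the data were seen. In simulated fragments over 4582 regions, 92% of halved and 30% of 1.5-fold raised regions were recovered, and 3.94% of the calls were false. The simulation drew all libraries independently, changed only regions above a set height and held no background difference between the genotypes. Its shares therefore do not give the rate of false calls in the real libraries. The work used R 4.3.3 with limma 3.58.1, samtools 1.23.1, and Python 3.11.15 with scipy 1.17.1, numpy 2.4.6, pysam 0.24.0, pandas 2.3.3 and matplotlib 3.10.9. Gene models were GENCODE M21, and sequences came from RefSeq (GRCm38.p6).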

Additional observations from a re-analysis of the deposited data

Results flagged for a closer look

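In 1 of 18 groups of 4 libraries (9 member regions in 2 genotypes), a library stood apart from the other 3. At the Mapkapk3 promoter upstream of Cish, Brg1 flox/flox replicate 2 had a relative summit height of 0.455, while the other 3 lay between 0.404 and 0.405, a gap of 0.99 of the group's range and above Dixon's 95% critical value for 4 samples. Chance gives about 1 such case in 20 groups. The height of replicate 2 there rests on 10 fragments.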

How the results depend on the processing

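Depth limits what can be said of regions missing from a list, and 4 libraries a genotype limit the single-region tests. Of the 28 member regions, 15 were detected in fewer and 3 in more Brg1 flox/flox libraries. Lists of the same length held 18 member regions, of which 9 were detected in fewer. The count in more was 0 of 21 with a −log10 q cut at 10 and 7 of 28 where peaks had to cover 50% of a region. It was 5 of 36 with 25 kb around the gene and 1 of 28 with libraries joined in pairs. The shares over all regions under these settings are not given here. The 1 region listed in 4 against 0 became 0 with a −log10 q cut at 5 or 10, with lists of the same length and with peaks within 500 bp joined, and 3 with joined pairs. Leaving out each library gave 13 to 16 fewer, 2 to 5 more (5 without Brg1 flox/plus replicate 1) and 1 to 2 listed in all of one genotype alone (2 without Brg1 flox/plus replicate 3), and detection differences of -12.1 to 2.78 points at promoters and -37.3 to -24.4 nearby. The regions called lower and higher (1 and 2) were 0 and 1 with the deposited fold, 7 and 0 with background scaling and 0 and 1 with averaged pairs, 0 lower with a −log10 q cut at 10, and 0 to 1 lower and 1 to 2 higher without each library. Exact permutation tests without adjustment put 1 lower and 3 higher under 0.05, each at 0.0286, the smallest p possible. These are the regions whose groups do not overlap, which held for 4.71% (lower) and 11.2% (higher) of all regions tested. The cause of these changes was not tested, except that stricter or fewer peaks leave fewer regions.

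Scaling by the background reversed Il4i1 promoter 1 (-0.17), the region of Akt1s1 (-0.64), Irs2 (-0.65), Socs1 (-0.63), the Nab2 and Nemp1 region (-0.46) and the taller Nab2 region (-0.30); the deposited fold reversed Socs1 (-0.018). At Trappc5 the difference near 0 changed sign without single libraries (-0.11 to 0.045). Over all regions, 125 lower and 317 higher calls became 61 and 75 with the deposited fold, 4166 and 20 with background scaling, 40 and 148 with averaged pairs, 82 and 164 with a −log10 q cut at 10, 140 and 189 with cyclic loess, 194 and 351 over regions in at least 3 libraries of each genotype, and 37 to 139 and 144 to 313 without each library.

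Replicate numbers do not pair the libraries: same-numbered libraries correlated at 0.01, -0.07, -0.03 and -0.04 in their deviations. With the replicate number as a block, 1 member region was called lower and 2 higher, and 113 and 258 over all regions.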
